A study of Mus musculus with 29 samples.

Results

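Acute phase and inflammatory cytokine genes were followed in mouse mammary fat pads from 6 diet groups. The 9 genes, Saa1, Saa2, Saa3, Lcn2, Orm1, Hp, Il1rn, Il6 and Tnf, were taken by name, and all 9 are among the 30818 genes of the deposited expression table. The mice were wild-type C57BL/6N. The Control group (5 libraries) ate the D12450J diet throughout. All other mice were first made obese on D12492, a 60% high fat diet. The Obese group (5 libraries) then stayed obese, and 4 weight-loss groups changed to another diet: LFD, a low-fat diet without restriction (5 libraries), LFCR, a low-fat diet with 30% calorie restriction (5 libraries), MCR, a Mediterranean-style diet with 30% calorie restriction (4 libraries), and ICR, intermittent calorie restriction (5 libraries). Every mouse, Control included, received E0771 mouse mammary cancer cells in the 4th fat pad at week 25, and RNA came from the 9th fat pad on the other side at the tumor endpoint. The labels are not uniform on this: source and tissue name normal contralateral gland, while the sample titles begin with tumor and the cell line and cell type entries name the injected cancer cells. The treatment text was followed here. None of the groups is therefore tumor-free. Neither the age and sex of the mice nor the pattern of the intermittent restriction is stated in the labels used here. Of the labelled mammary tissue, the mean of 10 luminal epithelial genes was at least 9.80 on the log2 scale in every library, and the mean of 8 mature adipocyte genes was at least 14.56.

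Acute phase proteins are plasma proteins whose levels shift during inflammation. Most are made in the liver under the control of interleukin-6 and interleukin-1, through the transcription factors STAT3, NF-kB and C/EBP, but fat tissue, macrophages and epithelia also transcribe several of them. In obese fat, macrophages gather around dying adipocytes, and the cytokines IL-6 and TNF are classic readouts of that state.

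Read depth ran from 16403903 to 49026986 per library (median 37270234), and the 5 libraries of sequencing lane 4 had the fewest reads, with 18212783 at most. The mean of 9 B cell genes separated the libraries into 8 with a value of 5.61 to 6.73 on the log2 scale (3 of MCR, namely 1, 3 and 4, LFCR 1 and 3, Obese 1 and 5, and LFD 1) and 21 with 10.30 to 12.90. No Control or ICR library was among the 8, so results are also given without them where that changes a call. Levels below are normalized counts, reads divided by a size factor per library, so that 1 read was worth 0.687 to 1.88 normalized counts. Differences are log2 differences on the deposited scale with their standard error (SE), from limma over all 29 libraries, and p-values were adjusted over the 19387 genes that reached a normalized count of 10 in at least 4 libraries, with 0.05 as the threshold. The deposited scale compresses low values, so such a difference is smaller than the log2 of the fold for genes with few reads. Of the 9 genes, 6 passed that minimum. Saa1, Saa2 and Il6 did not, and Saa3 passed with 12 libraries, of which 5 were Obese, 3 Control, 3 LFD and 1 MCR. The labels do not say that the libraries are separate animals, so p-values measure the spread between libraries.

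**Figure D1:**
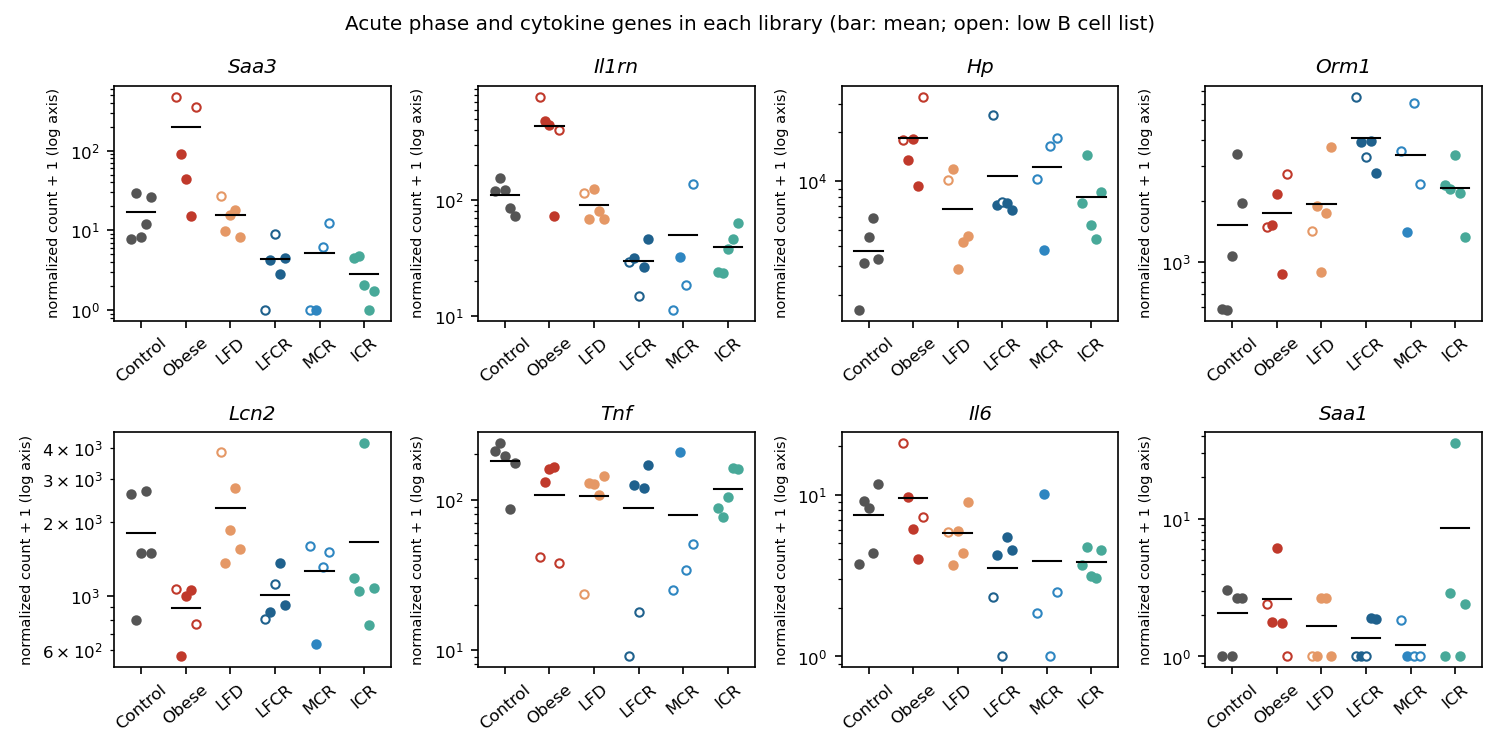
Normalized counts plus 1, on a log axis, of 8 of the 9 genes in each of the 29 libraries. Bars are group means and open symbols mark the 8 libraries with few B cell transcripts. Saa3 and Il1rn are high in Obese apart from 1 library, Hp is higher in all Obese than in all Control libraries, and the low Tnf values are the open symbols.

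Serum amyloid A (SAA) proteins are small acute phase apolipoproteins carried on high density lipoprotein. Saa1 and Saa2 are mainly liver genes, while Saa3 is the form made in fat and macrophages. The genes lie together on chromosome 7 of GRCm38, Saa3 at chr7:46711998-46715700 and Saa1 at chr7:46740497-46742980, both on the minus strand, and Saa2 at chr7:46751790-46754313 on the plus strand. Their main transcripts have 4 exons each and 555, 609 and 652 bases. Saa1 and Saa2 were 94.4% identical over 606 aligned bases, so reads could be divided or lost between that pair, while Saa3 was 76.02% identical to Saa1 and 74.8% to Saa2.

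In Obese fat pads, Saa3 had normalized counts of 474, 88.5, 42.8, 14.2 and 356. The Control libraries gave 6.87, 28.6, 7.25, 10.8 and 25.4. Obese 1 and Obese 5 stood far above the rest, and Obese 4 lay inside the Control range, so the groups overlapped. The Obese mean of 195 ± 207 (SD, n = 5) was 12.4-fold that of Control, 15.8 ± 10.4 (n = 5), and Saa3 rose by 1.95 on the log2 scale (SE 0.47, limma adjusted p = 0.00845). Without the 8 libraries low in B cell genes, which include Obese 1 and Obese 5, the difference was 0.85 (adjusted p = 0.129). With only Obese and Control in the fit it was 1.95 (adjusted p = 0.106).

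All 4 weight-loss diets had lower Saa3 than Obese. The LFD libraries gave 26.3, 8.82, 14.8, 16.7 and 7.23, a mean of 14.8 ± 7.56 (n = 5), which is 13.2-fold below Obese and close to the Control mean. The 3 restricted diets were lower still in mean: LFCR libraries gave 0, 3.24, 7.95, 1.80 and 3.53, MCR libraries 0, 0, 5.18 and 11.4, and ICR libraries 3.55, 3.76, 1.08, 0 and 0.705. Every restricted library was below every Obese library, an order that 6.23%, 4.56% and 4.52% of the genes tested showed in LFCR, MCR and ICR. At 17 reads in LFCR, 20 in MCR and 8 in ICR over all libraries of the group, the gene was near the limit of detection, and a count of 0 allows up to 3 reads, or 2.06 to 5.64 normalized counts by library, for counting error only.

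Against Obese, Saa3 fell by 1.97 in LFD (SE 0.47, adjusted p = 0.0151), by 2.76 in LFCR (SE 0.47, adjusted p = 0.000177), by 2.83 in MCR (SE 0.50, adjusted p = 0.000717) and by 2.93 in ICR (SE 0.47, adjusted p = 0.000311), all by limma. These 4 comparisons share the Obese libraries. The LFCR and ICR calls held in each of the 17 alternative analyses, and the MCR call in 15 of 16 (adjusted p = 0.0670 with only MCR and Obese in the fit). Leaving out Obese 1 (adjusted p = 0.0564) or Obese 5 (adjusted p = 0.0512) ended the LFD call, as did a fit of only LFD and Obese (adjusted p = 0.145) and voom with TMM (adjusted p = 0.0512), and without the 8 libraries low in B cell genes the LFD difference was -0.98 (adjusted p = 0.0980). The mean of the 3 restricted diets differed from LFD by -0.88 (SE 0.39), with a limma adjusted p of 0.200 (0.0397 with only those 4 groups in the fit), and limma's F-test among the restricted diets gave an adjusted p of 0.974.

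Saa1 and Saa2 were at or near 0 reads in nearly all libraries. Saa1 had at most 5.13 normalized counts in 28 of the 29 libraries. The exception was ICR 3, with 34.5 normalized counts from 32 reads. Saa2 was at 0 in every Control, Obese and MCR library and had at most 1.99 in LFD and LFCR, while ICR 3 had 5.39 from 5 reads. In a fit without the minimum, Saa1 differed between Obese and Control by 0.09 (SE 0.26, limma adjusted p = 0.888). Saa4, the constitutive family member, had 1 read in all of Obese, 1 in LFCR, 1 in ICR and 0 elsewhere.

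The sequences before the starts of the 3 Saa genes are printed because the genes are neighbours of 1 family with different levels, and that of Il1rn because, like Saa3, it passed as higher in Obese against Control and as lower in all 4 diets against Obese. They are from RefSeq (GRCm38.p6), on the gene's strand, and cover at most 250 bases before a start, without bases that the annotation places in an exon of the gene: Saa3 at chr7:46715701-46715926 and Saa1 at chr7:46742981-46743230 on the minus strand, Saa2 at chr7:46751583-46751789 and Il1rn at chr2:24345041-24345287 on the plus strand. RefSeq gives 3 starts for Il1rn, and the window shown is the second by position, before an internal start within the annotated gene. Capitals mark matches on either strand to TTNNGNAA, a core bound by C/EBP factors.
Saa3: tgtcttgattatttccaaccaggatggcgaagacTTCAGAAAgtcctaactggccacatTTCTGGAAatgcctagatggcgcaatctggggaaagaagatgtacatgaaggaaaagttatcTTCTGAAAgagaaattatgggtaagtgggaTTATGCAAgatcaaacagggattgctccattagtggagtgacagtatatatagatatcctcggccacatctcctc
Saa1: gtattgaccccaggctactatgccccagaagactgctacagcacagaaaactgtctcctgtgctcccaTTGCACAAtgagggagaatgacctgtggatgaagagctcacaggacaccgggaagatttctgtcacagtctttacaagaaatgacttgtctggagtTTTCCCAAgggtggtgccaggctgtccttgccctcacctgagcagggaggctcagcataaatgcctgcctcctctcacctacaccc
Saa2: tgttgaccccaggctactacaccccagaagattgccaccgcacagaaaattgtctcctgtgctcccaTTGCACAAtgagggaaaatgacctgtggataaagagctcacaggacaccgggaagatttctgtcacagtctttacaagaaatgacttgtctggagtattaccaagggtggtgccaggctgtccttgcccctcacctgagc
Il1rn: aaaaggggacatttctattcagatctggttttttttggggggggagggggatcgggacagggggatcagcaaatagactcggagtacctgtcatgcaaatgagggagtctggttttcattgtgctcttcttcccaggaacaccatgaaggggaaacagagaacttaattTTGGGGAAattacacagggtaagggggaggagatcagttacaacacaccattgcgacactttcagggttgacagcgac
Saa3 held 4 such matches, Saa1 2, Saa2 1 and the Il1rn window 1. The other Il1rn windows were not printed: the one before the first start held 0 matches, and the one before the last start held 3, of which 1 is the match shown and the remaining pair overlap each other. At least 1 match was found in 36.8% of 32851 RefSeq promoter windows of 250 bases. The NF-kB consensus, present in 7.25% of the windows, and TTCNNNGAA, a STAT core present in 7.02%, were in none of the printed sequences. RefSeq windows were found for 7 of the 9 genes, not for Orm1 and Hp.

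Levels of markers of macrophages that accumulate lipid were, like Saa3, highest in mean in Obese. The list holds 8 genes, among them Trem2 and Gpnmb, and none of the 8 was at 3 reads or fewer in all libraries. On the log2 scale its mean was 9.22 to 11.05 in Obese and 8.32 to 8.98 in Control. Among the diets it was 8.45 to 9.77 in LFD, 8.44 to 8.98 in ICR, 8.21 to 9.38 in MCR and 8.04 to 8.71 in LFCR. Obese 4, the Obese library with the least Saa3, also had the lowest list mean in its group, and LFD 1, with the most Saa3 in LFD, had the highest. LFCR, Control and ICR did not show this order. LFCR 3 had the most Saa3 in LFCR (7.95) with its lowest list mean (8.04), and LFCR 1, at 0, its highest (8.71). Control 5, at 25.4, had the lowest Control mean (8.32), and ICR 3, at 1.08, the highest ICR mean (8.98). The summed level ran from 6777 to 8628 normalized counts in Control and from 8061 to 25550 in Obese, and from 5603 to 13098 across the 4 weight-loss diets. Of the 8 genes, 5 rose in Obese against Control (9.44% of all genes). Against Obese, 5, 6, 6 and 6 fell in LFD, LFCR, MCR and ICR (3.28%, 9.42%, 5.69% and 5.23% of all genes). The part of these cells in the Saa3 result was not tested, and in bulk tissue fewer cells of a type and less RNA per cell cannot be told apart.

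**Figure D2:**
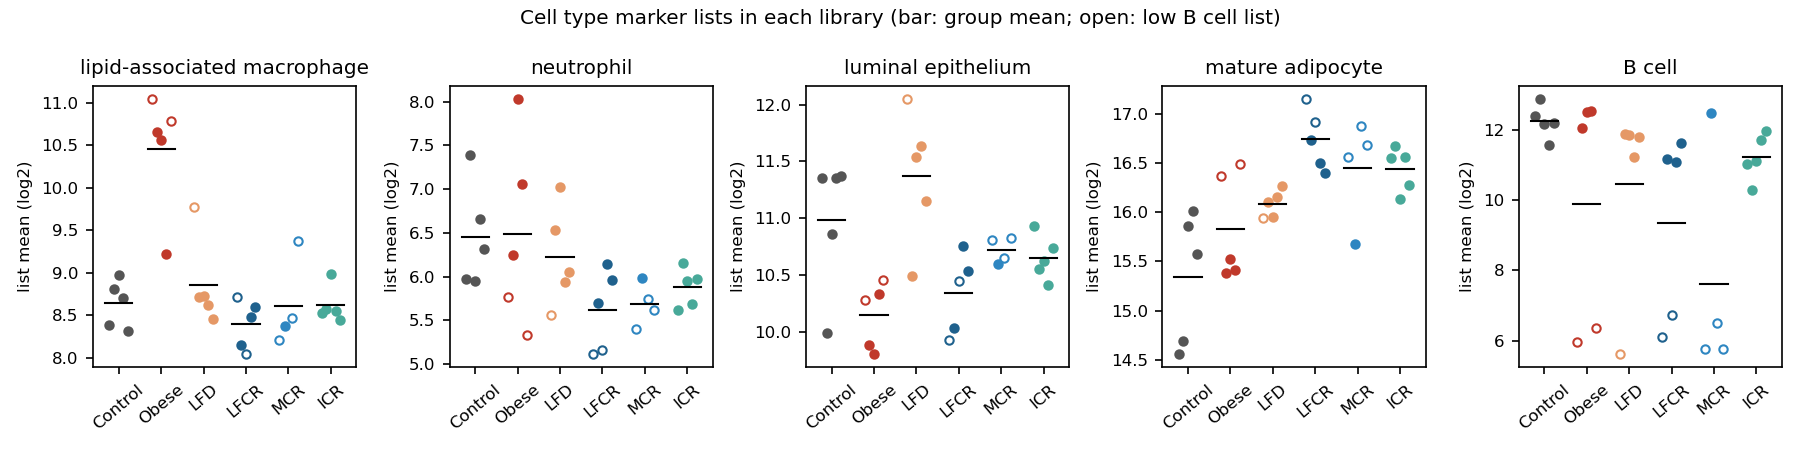
Mean log2 value of 5 lists of cell type markers in each library, with group means as bars and the 8 libraries low in B cell genes as open symbols. The list for lipid-associated macrophages is highest in Obese (9.22 to 11.05), that for luminal epithelium is higher in all LFD than in all Obese libraries, and that for mature adipocytes is lowest in Control.

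Il1rn encodes the interleukin-1 receptor antagonist, a secreted inhibitor that occupies the IL-1 receptor without signalling. It lies at chr2:24336853-24351494 on the plus strand, and its main transcript has 5 exons and 2474 bases. Normalized counts were 775, 483, 441, 71.0 and 396 in Obese against 118, 153, 120, 84.2 and 72.2 in Control. As for Saa3, 4 Obese libraries were above all Control libraries. Obese 4 was just below the lowest Control library. The mean was 433 ± 251 (n = 5) in Obese, 3.96-fold that of 109 ± 32.1 (n = 5) in Control, and Il1rn rose by 1.52 (SE 0.41, limma adjusted p = 0.0168). Leaving out Obese 1 ended the call (adjusted p = 0.0761), as did a fit of only the 2 groups (adjusted p = 0.0872) and leaving out the 8 libraries low in B cell genes, where the difference was 1.11 (adjusted p = 0.148).

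Il1rn was lower than Obese in all 4 weight-loss groups, and below Control in the restricted ones. LFD libraries gave 114, 67.0, 123, 78.6 and 67.5, within or near the Control range. LFCR libraries gave 28.1, 30.3, 13.9, 25.1 and 44.96, and ICR libraries 23.1, 22.6, 36.6, 45.03 and 62.7. All of these 10 libraries were below the lowest Control and the lowest Obese library. Against Obese, 6.23% of genes in LFCR and 4.52% in ICR were ordered so, and against Control 8.88% and 2.95%. MCR libraries gave 10.2, 31.0, 17.6 and 135, and MCR 4, the highest, was also the MCR library with the highest mean of the lipid-associated macrophage list.

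Against Obese, Il1rn fell by 2.902 on the log2 scale in LFCR (SE 0.41, limma adjusted p = 2.92e-05), and by 2.71 in MCR (SE 0.44, adjusted p = 0.000309), fell by 2.66 in ICR (SE 0.41, adjusted p = 0.000216) and fell by 1.74 in LFD (SE 0.41, adjusted p = 0.0139). In that order the means were 15.2-, 8.94-, 11.4- and 4.81-fold below Obese. The LFCR and ICR calls held in all 17 alternatives. For LFD the call ended without Obese 1 (adjusted p = 0.0540) and with only LFD and Obese in the fit (adjusted p = 0.0909), and without the 8 libraries low in B cell genes both the LFD call (-1.41, adjusted p = 0.0893) and the MCR call (-2.38, adjusted p = 0.0995, with 1 MCR library left) were lost. Against Control, Il1rn fell by 1.38 in LFCR (SE 0.41, adjusted p = 0.0137) and by 1.19 in MCR (SE 0.44, adjusted p = 0.0428), the latter lost in 12 of 16 alternatives. In ICR the difference from Control was -1.14 (SE 0.41, adjusted p = 0.101), which passed without the 8 libraries (adjusted p = 0.0268) and with only the 2 groups in the fit (adjusted p = 0.0347). LFD and Control differed by -0.22 (SE 0.41, adjusted p = 0.756). The mean of the 3 restricted diets differed from LFD by -1.01 (SE 0.34, adjusted p = 0.0892), which passed without MCR 4 (adjusted p = 0.0375), and limma's F-test among the restricted diets gave an adjusted p of 0.923.

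Hp encodes haptoglobin, the plasma protein that binds free hemoglobin, and fat is a known source of its transcript. It lies at chr8:109575128-109579172 on the minus strand, with 5 exons and 1345 bases in its main transcript. Its normalized counts were 17839, 13533, 18239, 9293 and 33111 in Obese and 1615, 3131, 4520, 5902 and 3335 in Control. Every Obese library was above every Control library, an order that 6.32% of the genes tested showed. The Obese mean of 18403 ± 8992 (n = 5) was 4.97-fold the Control mean of 3701 ± 1607 (n = 5), and Hp rose by 2.30 (SE 0.48, limma adjusted p = 0.00297). The call held in all 17 alternatives, with differences of 1.95 to 2.52.

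No weight-loss diet gave a Hp call against Obese. LFD libraries had 10117, 11825, 2897, 4200 and 4617 normalized counts, and 3 of these were in the Control range. LFD differed from Obese by -1.53 (SE 0.48, limma adjusted p = 0.0568) and passed the threshold when Obese 4, LFD 1 or LFD 2 was left out (adjusted p = 0.0249 to 0.0476). The LFCR libraries had 25527, 7130, 7474, 7377 and 6643, all above Control, as 12.2% of genes were, and the MCR libraries 10275, 3778, 16363 and 18414. The ICR libraries had 7316, 14484, 5386, 4419 and 8620. Hp rose against Control by 1.43 in LFCR (SE 0.48, adjusted p = 0.0230) and by 1.61 in MCR (SE 0.51, adjusted p = 0.0251). The LFCR call was lost without Control 1, Control 2 or LFCR 1 (adjusted p = 0.0801, 0.0506 and 0.0891) and with lane as a term (adjusted p = 0.0502). The MCR call was lost without Control 1, Control 2, MCR 1, MCR 3 or MCR 4 (adjusted p = 0.0601 to 0.103). Without the 8 libraries low in B cell genes, the differences from Control were 1.05 in LFCR (adjusted p = 0.0830) and 0.15 in MCR (adjusted p = 0.997, with 1 MCR library left).

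Orm1 encodes orosomucoid, or alpha-1-acid glycoprotein, which binds basic and neutral small molecules in plasma. It lies at chr4:63344560-63348163 on the plus strand, with Orm3 and Orm2 beside it, and its main transcript of 775 bases is 91.0% identical to that of Orm2 and 86.5% to that of Orm3, so reads may have been divided between them. Normalized counts of Orm1 were 587, 582, 1075, 3436 and 1968 in Control, 1497, 1519, 2177, 878 and 2709 in Obese, and 1426, 1904, 897, 1741 and 3720 in LFD. These 3 groups overlapped, and Obese differed from Control by 0.44 (SE 0.44, limma adjusted p = 0.517). LFCR libraries had 6548, 3928, 3315, 3949 and 2741, all above every Obese library, as 8.82% of genes were. MCR libraries had 3543, 1408, 6090 and 2422, and ICR libraries 2400, 2296, 3384, 2187 and 1330.

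Orm1 had its highest means in the continuously restricted groups, 4096 ± 1459 (n = 5) in LFCR and 3366 ± 2015 (n = 4) in MCR, against 1529 ± 1206 (n = 5) in Control. It rose against Control by 1.68 in LFCR (SE 0.44, limma adjusted p = 0.00699), a call that held in all 17 alternatives, and by 1.26 in MCR (SE 0.47, adjusted p = 0.0457), a call lost in 10 of 16. Without the 8 libraries low in B cell genes, Orm1 differed from Control by 0.22 in MCR, with 1 MCR library left. Against Obese it rose by 1.24 in LFCR (SE 0.44, adjusted p = 0.0462), but the call was lost when any of 8 of the 10 libraries was left out (adjusted p up to 0.130), without the 8 libraries low in B cell genes (1.27, adjusted p = 0.126), with lane as a term (1.16, adjusted p = 0.0920) and without the minimum (adjusted p = 0.0708). Orm2 and Orm3 also had their highest means in LFCR, 44.7 and 88.3 normalized counts, against 10.9 and 16.7 in Obese.

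Mature adipocyte genes were also higher in the comparisons with Control. Of 8 such genes, among them Adipoq and Plin1, 8 rose in LFCR (20.1% of all genes) and 7 in MCR (13.9%) against Control. In ICR 6 rose (4.58% of all genes passed in either direction) and in Obese 3 (9.44% higher). In LFD against Control 0 passed (0% of all genes), with a list median of 0.74. The list mean was 14.56 to 16.01 for Control and 15.38 to 16.48 for Obese. For the diets it was 16.39 to 17.15 (LFCR), 15.68 to 16.88 (MCR), 16.13 to 16.67 (ICR) and 15.94 to 16.27 (LFD). LFCR 1, with the most Hp and Orm1 in LFCR, had the highest list mean of all libraries, and Control 1 and 2, with the least Orm1, had the lowest. Other libraries did not show this order for Orm1. ICR 3 had the most Orm1 in ICR (3384) with the lowest ICR list mean (16.13). LFCR 3 had less Orm1 (3315) than LFCR 2 (3928) with a higher list mean (16.91 against 16.74). Of the hepatocyte list of 8 genes, 7 were in the table and 3 reached the minimum. Against Control, 2 of the 3 rose in LFCR (20.1% of all genes), and in MCR 1 rose (13.9%) and 1 fell (15.7%). In ICR 1 rose (4.58% of all genes passed in either direction), and in Obese 1 rose and 1 fell (12.9% in either direction). In LFD 0 passed. Apoa1 and Tat, which liver cells transcribe strongly, were picked from this list after their values were seen. They were near 0, with group means of 0.769 to 4.27 and 0.291 to 1.45 normalized counts. Alb, of the same list, had group means of 360 in Obese to 4844 in LFCR. The part of adipocyte content in the Hp and Orm1 results was not tested.

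Lcn2 encodes lipocalin 2, which withholds iron from bacteria by binding their siderophores and is stored in neutrophil granules and made by epithelia. It is on chromosome 2 (chr2:32384633-32388252, minus strand), and its main transcript has 6 exons and 915 bases. In contrast to Saa3, its lowest mean was in Obese, where the libraries gave 1063, 566, 994, 1061 and 770 normalized counts. LFD libraries gave 3856, 1364, 1851, 2743 and 1546, each above all Obese libraries (2.42% of genes were ordered so), and Control libraries 2589, 796, 1488, 2677 and 1500. LFD had a mean of 2272 ± 1032 (n = 5), 2.55-fold that of Obese, 890 ± 218 (n = 5), and Lcn2 rose by 1.26 in LFD (SE 0.38, limma adjusted p = 0.0472). The call was lost in 12 of 17 alternatives, among them leaving out any of 8 libraries (adjusted p up to 0.125). Obese differed from Control by -0.91 (SE 0.38, adjusted p = 0.110), which passed without Control 2 (adjusted p = 0.0440).

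The restricted diets lay between Obese and LFD in mean Lcn2. LFCR libraries gave 806, 860, 1118, 1355 and 920, MCR libraries 1591, 637, 1315 and 1505, and ICR libraries 1187, 1045, 4191, 757 and 1079. ICR 3 was far above the other ICR libraries and was also the library with the most Saa1 and Saa2. None of the 3 diets passed against Obese (adjusted p of 0.353 to 0.767), and their mean differed from LFD by -0.84 (SE 0.31, limma adjusted p = 0.123), which passed without ICR 3 (adjusted p = 0.0396) and with lane as a term (-1.02, adjusted p = 0.0413).

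Luminal epithelial genes differed in the same direction as Lcn2. Of 10 luminal genes, among them Epcam and Krt8, 4 fell in Obese against Control (12.9% of all genes passed in either direction) and 8 rose in LFD against Obese (2.7%). The list mean was 9.99 to 11.37 in Control, 9.80 to 10.45 in Obese and 10.49 to 12.05 in LFD, and its summed level 14374 to 43046, 12151 to 19633 and 18311 to 68261 normalized counts. Control 2, with the least Lcn2 in Control, had the lowest luminal mean of that group, and LFD 1, with the most Lcn2 in LFD, the highest of all. Obese did not show this order: Obese 5 had its highest luminal mean (10.45) with Lcn2 at 770, and Obese 3 its lowest (9.80) with 994. ICR 3 had a luminal mean of 10.62, inside the ICR range of 10.41 to 10.93. The neutrophil list of 11 genes had a mean of 5.95 to 7.39 in Control, 5.33 to 8.03 in Obese and 5.56 to 7.02 in LFD, so its groups overlapped. The part of epithelial content in the Lcn2 result was not tested.

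Tnf encodes tumor necrosis factor, an inflammatory cytokine of macrophages and lymphocytes. The gene is at chr17:35199381-35202007 on the minus strand, with 4 exons and 1639 bases in its main transcript. Normalized counts were 211, 237, 194, 85.9 and 176 in Control and 40.2, 131, 159, 163 and 36.8 in Obese. LFD libraries gave 22.4, 128, 126, 106 and 144, LFCR libraries 8.03, 124, 16.9, 119 and 170, MCR libraries 23.9, 206, 33.1 and 50.01, and ICR libraries 87.0, 75.2, 103, 162 and 160. Low and high libraries occurred within 4 of the 6 groups. The Control mean was highest, 181 ± 57.7 (n = 5), and the Obese mean was 106 ± 62.8 (n = 5), a difference of -0.77 (SE 0.51, limma adjusted p = 0.310).

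The low Tnf libraries were those with few B cell transcripts. All 8 had 8.03 to 50.01 normalized counts of Tnf, and the other 21 had 75.2 to 237, with no overlap, an order that 6.28% of the genes tested showed. The same 8 libraries were low in T and NK cell transcripts: the mean of 9 such genes was 5.80 to 6.53 on the log2 scale in the 8 and 8.74 to 10.85 in the other 21. The part of lymphocyte content in the Tnf values was not tested. Among the other libraries, the 3 of Obese had 151 ± 17.5, the 4 of LFD 126 ± 15.4, the 3 of LFCR 138 ± 28.3 and the 5 of ICR 117 ± 40.9. The only MCR library among them was MCR 2, with 206, so the MCR differences below rest on 1 library where the 8 are left out. Without the 8, Tnf differed between Obese and Control by -0.17 (SE 0.25, adjusted p = 0.80004), and its differences from Obese became -0.22 in LFD, 0.40 in MCR and -0.35 in ICR, opposite in sign to those over all libraries. No Tnf difference between groups passed the threshold over all libraries. Against Control, Tnf passed in LFCR without Control 4, LFCR 2, LFCR 4 or LFCR 5 (adjusted p = 0.0264 to 0.0475) and with lane as a term (-1.18, adjusted p = 0.0437). It passed in MCR without Control 4 or MCR 2 (adjusted p = 0.0458 and 0.0108) and by voom with size factors (adjusted p = 0.04996).

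**Figure D3:**
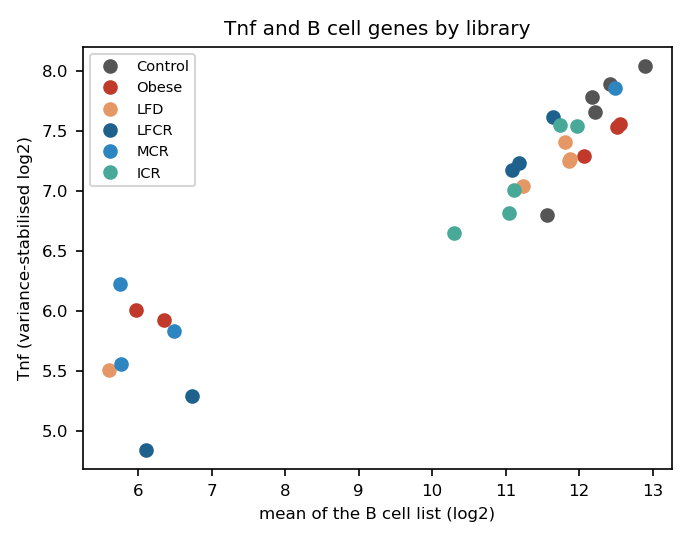
Tnf (deposited log2 scale) against the mean of 9 B cell genes (log2) in each of the 29 libraries, coloured by diet group. The 8 libraries with a B cell mean of 5.61 to 6.73 have the 8 lowest Tnf values.

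Il6 encodes interleukin-6, the main inducer of acute phase genes in liver. It was near the limit of detection, with 0 to 28 reads per library. Obese libraries gave 19.8, 8.62, 5.13, 2.99 and 6.27 normalized counts and Control libraries 2.75, 8.17, 7.25, 3.33 and 10.7, so the groups overlapped. Group means ran from 8.55 (Obese), 6.43 (Control) and 4.76 (LFD) to 2.87 (MCR), 2.83 (ICR) and 2.52 (LFCR). In a fit without the minimum, the smallest limma adjusted p was that of LFCR against Obese (-0.52, SE 0.19, adjusted p = 0.0727), and Obese differed from Control by 0.11 (SE 0.19, adjusted p = 0.773). Unadjusted p-values were 0.0106 for LFCR and 0.00939 for MCR against Obese, and no Il6 difference passed the adjusted threshold in that fit.

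Per kilobase of main transcript, the 3 genes for plasma-binding proteins led in Control, Hp with 2751 ± 1194 normalized counts per kilobase, Lcn2 with 1978 ± 879 and Orm1 with 1973 ± 1556, and these ranges overlapped. Tnf followed with 110 ± 35.2, Il1rn with 44.2 ± 13.0, Saa3 with 28.5 ± 18.8, Il6 with 5.64 ± 2.93 and Saa1 with 1.76 ± 1.63. In Obese, Hp had 13682 ± 6685 and lay above the ranges of Orm1 (2266 ± 908) and Lcn2 (973 ± 238), while Saa3 (352 ± 373) and Il1rn (175 ± 102) were above Tnf (64.6 ± 38.3) in mean, with overlapping libraries. In LFCR, Saa3 was at 5.95 ± 5.32 and Il1rn at 11.5 ± 4.51, both below Tnf in mean (53.4 ± 43.6).

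Across comparisons, the genes that changed depended on which group was set against which. In Obese against Control, 3 of the 6 genes tested passed, Saa3, Hp and Il1rn, all higher, beside 12.9% of all 19387 genes in either direction and 9.44% higher. The median difference of the 6 was 0.98, and that of all genes -0.03. Without the 8 libraries low in B cell genes, and with only the 2 groups in the fit, 1 passed in each case, Hp. In LFD against Obese, 3 of 6 passed (5.98% of all genes), Saa3 and Il1rn lower (3.28%) and Lcn2 higher (2.7%), and none without the 8 libraries. In LFCR against Obese, 3 of 6 passed (21.4% of all genes), Saa3 and Il1rn lower (9.42%) and Orm1 higher (11.9%), and 2 without the 8 libraries. In MCR against Obese, 2 of 6 passed (12.4% of all genes), Saa3 and Il1rn, both lower (5.69%), and 1 without the 8. In ICR against Obese, the same 2 were lower (9.21% of all genes in either direction, 5.23% lower). The 4 comparisons with Obese share its libraries.

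**Figure D4:**
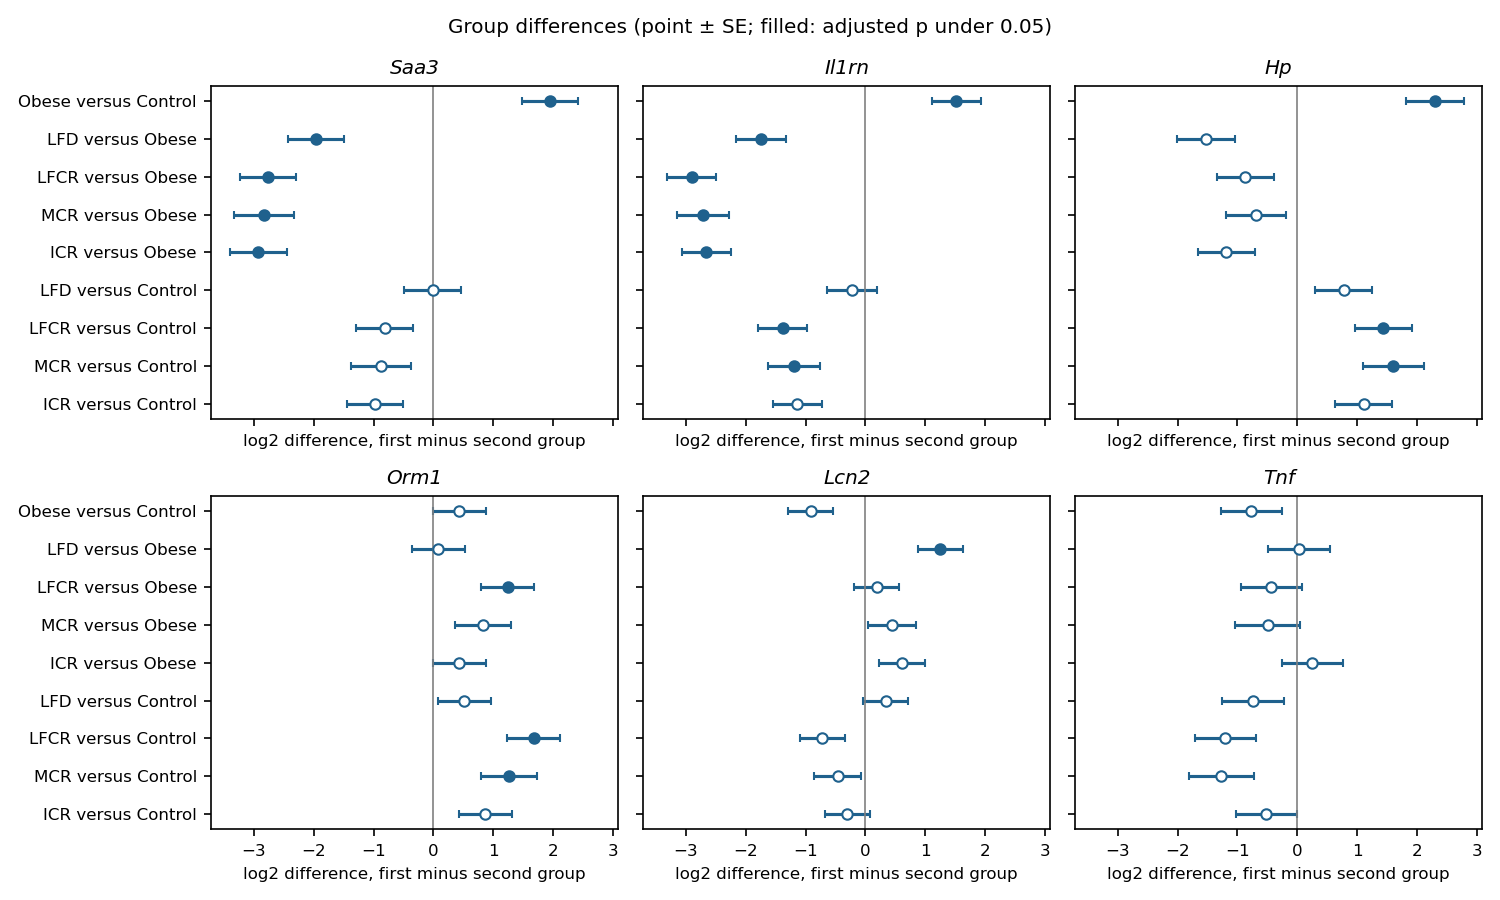
Log2 differences (first group minus second, points with SE bars) of the 6 genes tested in 9 comparisons. Filled points have a limma adjusted p under 0.05. Saa3 and Il1rn lie to the right for Obese against Control and to the left for all 4 diets against Obese, and Hp and Orm1 lie to the right of 0 in all comparisons with Control.

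Against Control, 3 of 6 genes passed in LFCR (38.1% of all genes, 20.1% higher and 18% lower) and 3 in MCR (29.6% of all genes, 13.9% higher and 15.7% lower), Orm1 and Hp higher and Il1rn lower in both, and without the 8 libraries 2 and 0 passed. With so large a share of all genes called, 3 of 6 is not a result about these genes. In LFD against Control limma called 0 of the 6 (0% of all genes), with 0 of 6 at an unadjusted p under 0.05 (12.5% of genes) and 0 by voom under either scaling, and Saa3 differed by -0.01 (SE 0.47). In ICR against Control limma and voom each called 0 of 6 (4.58% of all genes by limma), with 3 of 6 at an unadjusted p under 0.05 (24.6% of genes). Without the 8 libraries, none of which is a Control or ICR library, 3 passed there: Saa3 (-0.98, adjusted p = 0.0138), Il1rn and Hp (1.11, adjusted p = 0.0415). The mean of the 3 restricted diets against LFD gave 0 of 6 by limma and voom (3.33% of all genes by limma), with 3 of 6 at an unadjusted p under 0.05 (20.3% of genes). The test among the restricted diets gave 0 of 6 by both (0% of all genes by limma), and 0 of 6 at an unadjusted p under 0.05 (12.9% of genes).

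Within sequencing lanes, each with at most 1 library of a group, directions were compared with those over all libraries. Saa3 and Hp were higher in Obese than in Control in 4 of 4 lanes with both groups (0.17 to 4.21 and 0.65 to 3.44 on the log2 scale), and Il1rn in 3 of 4 (-0.19 to 2.48). Saa3 and Il1rn were lower than Obese in 4 of 4 lanes for LFD, LFCR and ICR and in 3 of 3 for MCR. Lcn2 was higher in LFD than in Obese in 4 of 4 lanes (0.88 to 1.83). With lane as a term in the fit, the calls of Orm1 in LFCR against Obese (adjusted p = 0.0920), Orm1 in MCR against Control (adjusted p = 0.0704), Il1rn in MCR against Control (adjusted p = 0.0514) and Hp in LFCR against Control were lost. Those of Tnf in LFCR against Control and Lcn2 in the restricted diets against LFD were gained, and no other call of the 6 genes changed.

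Of a list of 22 other acute phase genes, 18 were tested. In Obese against Control, 4 rose (9.44% of all genes did) and 0 fell: Lrg1, leucine-rich alpha-2-glycoprotein, by 1.13 (SE 0.17, limma adjusted p = 0.000216), Lbp, which presents bacterial lipopolysaccharide to its receptor, by 2.09 (SE 0.38, adjusted p = 0.00121), the protease inhibitor Serpina3n by 1.29 (adjusted p = 0.0153) and the heme binder Hpx by 0.58 (adjusted p = 0.0306). The list's median was -0.30, and that of all genes -0.03. Lbp means were 4577 ± 1397 normalized counts in Obese and 1080 ± 404 in Control, and Lrg1 means 5900 ± 1404 and 2652 ± 329. Hpx was far lower in count, with means of 24.6 ± 7.38 in Obese and 10.4 ± 2.71 in Control. The Lrg1 and Lbp calls held in all 17 alternatives. That of Serpina3n was lost without Control 1 (adjusted p = 0.0577), Obese 5 (adjusted p = 0.0596) or the 8 libraries low in B cell genes (adjusted p = 0.0756). That of Hpx was lost in 10 of 17: without any of 7 libraries (adjusted p up to 0.0841) or the 8 (adjusted p = 0.156), with lane as a term (adjusted p = 0.0647) and on log2(normalized count + 1) (adjusted p = 0.0753).

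Lrg1 and Lbp also fell in every weight-loss group against Obese. The differences of Lrg1 were -1.43 for LFCR, -1.26 for MCR, -1.05 for ICR and -0.90 for LFD (adjusted p = 5.47e-06, 9.59e-05, 0.000327 and 0.00309), and those of Lbp, in the same order, -2.39, -2.48, -1.997 and -1.56 (adjusted p = 8.8e-05, 0.000331, 0.00159 and 0.0165). Without the 8 libraries, the LFD calls of Lrg1 (adjusted p = 0.0578) and Lbp (adjusted p = 0.0685) and the MCR call of Lrg1 (adjusted p = 0.0590) were lost, and that of Lbp in LFD also without LFD 3, LFD 4 or LFD 5 (adjusted p = 0.0528 to 0.0583). In LFD, 3 of the 18 fell (3.28% of all genes), with Serpina3n (-1.29, adjusted p = 0.0259), and 1 rose (2.7% of all genes), the copper-carrying ferroxidase Cp (0.78, adjusted p = 0.0396). The Serpina3n and Cp calls were lost when any of 6 and 8 libraries was left out, and none of the 18 passed without the 8 libraries low in B cell genes. In LFCR, 3 fell (9.42% of all genes) and 3 rose (11.9%), among the latter Orm3 by 1.52 (adjusted p = 0.00187) and Cp by 1.00 (adjusted p = 0.00228). In MCR, 2 fell (5.69% of all genes) and 4 rose (6.66%), with Cp (0.98, adjusted p = 0.00825) and Orm3 (1.22, adjusted p = 0.0247), both lost without the 8 libraries. The Orm3 call was also lost without Obese 3, MCR 1 or MCR 3 (adjusted p = 0.0604 to 0.133) and with lane as a term (adjusted p = 0.0527). In ICR, 3 fell (5.23% of all genes), with Hpx (-0.75, adjusted p = 0.00725, at a mean of 7.93 normalized counts), and 1 rose (3.99%), Cp (0.75, adjusted p = 0.0357). Without the 8 libraries, 4 fell and 1 rose in ICR. The Cp call in ICR was lost when any of 6 libraries was left out (Obese 2, 3, 4 or 5, ICR 2 or ICR 3, adjusted p = 0.0514 to 0.122).

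Against Control, limma called 0 of the 18 in LFD and 0 in ICR, with 0 and 2 at an unadjusted p under 0.05 and 0 by voom, and 3 in ICR without the 8 libraries. In LFCR, 3 rose (20.1% of all genes), with the metalloreductase Steap4 (1.13, adjusted p = 0.00668) and the metallothionein Mt1 (0.97, adjusted p = 0.0243), and 2 fell (18% of all genes), Itih3 (-1.52, adjusted p = 0.0298) and Serpina3g (-2.48, adjusted p = 0.0404). In MCR, 2 rose (13.9% of all genes), Serpina3m (1.57, adjusted p = 0.0154) and Steap4 (1.08, adjusted p = 0.0187), and 2 fell (15.7%), Serpina3g (-3.37, adjusted p = 0.0199) and Itih3 (-1.67, adjusted p = 0.0322). Of these, the LFCR call of Steap4 held in all 17 alternatives, the other LFCR calls were lost when any of 4 to 6 libraries was left out, and the MCR calls were all lost without the 8 libraries (adjusted p = 0.997). The mean of the restricted diets was above LFD for 1 of the 18, Serpina3m (1.33, adjusted p = 0.0305), a call also lost without the 8 (adjusted p = 0.315).

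**Figure D5:**
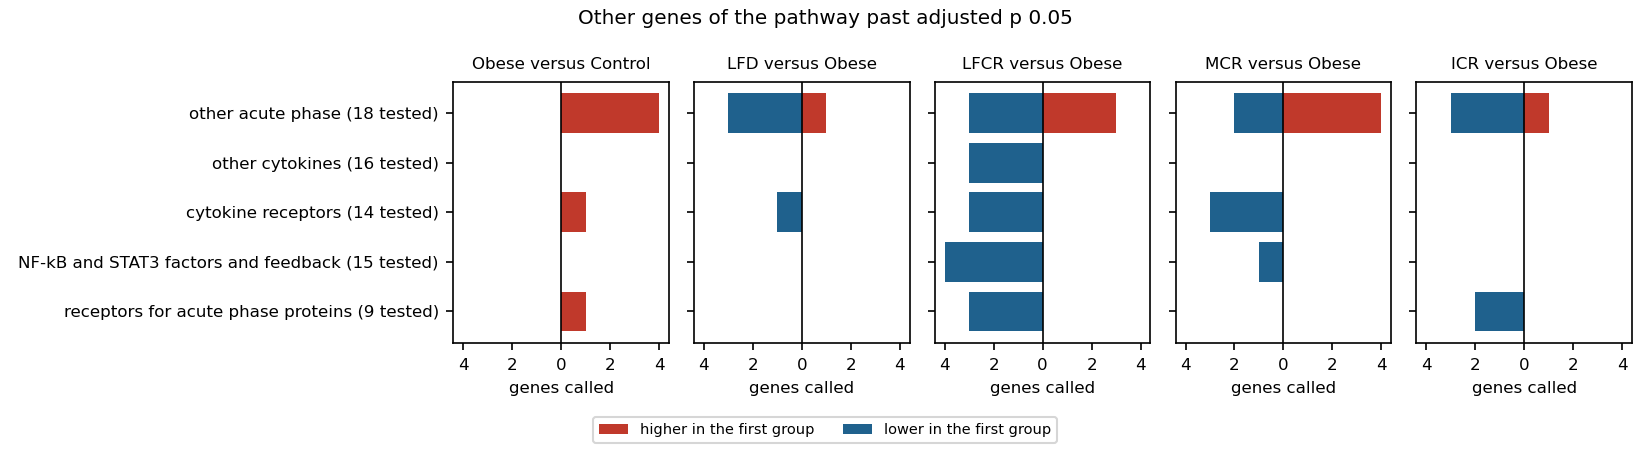
Number of genes past a limma adjusted p of 0.05 in 5 lists around acute phase and cytokine signalling, higher (right) or lower (left) in the first group, for Obese against Control and the 4 weight-loss diets against Obese. Other acute phase genes have calls in all 5 comparisons, and the cytokine list has calls in LFCR against Obese only among these 5.

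Of 16 other cytokines tested, limma called 0 in Obese against Control, with 3 at an unadjusted p under 0.05 and 0 by voom, and their median was -0.43. In LFCR against Obese 3 of 16 fell (9.42% of all genes): Il11 by 0.51 (adjusted p = 0.00191), at 3.53 against 10.4 normalized counts, Csf1, the macrophage growth factor, by 0.42 (adjusted p = 0.0379) and Tgfb1 by 0.70 (adjusted p = 0.0446). In LFD, MCR and ICR against Obese limma called 0 of 16, with 0, 2 and 2 at an unadjusted p under 0.05 and 0, 1 and 0 by voom. Without the 8 libraries low in B cell genes, 1 of 16 fell in ICR against Obese. The Csf1 and Tgfb1 calls were each lost when any of 6 libraries was left out, and that of Il11 (-0.32, adjusted p = 0.0674) without the 8 libraries. Il1a and Il1b, the IL-1 cytokines that the Il1rn product opposes, had means of 51.7 and 59.1 normalized counts in Obese and 89.9 and 78.2 in Control. Against Control, 8 of 16 fell in LFCR (18% of all genes), 6 in MCR (15.7%), 1 in ICR (0.882%) and 0 in LFD (1 of 16 at an unadjusted p under 0.05, 0 by voom). In MCR against Control, 9 of 9 B cell genes and 8 of 9 T and NK cell genes fell as well, and in LFCR 0 and 2. The counts of cytokines that fell without the 8 libraries were 2 in LFCR, 0 in MCR, where limma called 0 of all genes with 1 MCR library left, and 5 in ICR. The part of lymphocyte content in these counts was not tested.

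Among 14 cytokine receptors, Tnfrsf1a, the main TNF receptor, rose in Obese against Control by 0.53 (adjusted p = 0.0125), a call lost without Obese 1 (adjusted p = 0.0584) or Obese 5 (adjusted p = 0.0537), and without the 8 libraries (adjusted p = 0.123). In LFD, 1 fell against Obese (3.28% of all genes), Il10rb (-0.38, adjusted p = 0.0226), a call also lost without the 8 (adjusted p = 0.0873). In LFCR 3 fell (9.42% of all genes): Il1r1, the signalling IL-1 receptor, by 0.48 (adjusted p = 0.00318), Tnfrsf1b by 0.95 (adjusted p = 0.0113) and Il6ra by 0.63 (adjusted p = 0.0304). In MCR 3 fell (5.69%): Il6ra by 0.98 (adjusted p = 0.00443), Il10rb by 0.43 (adjusted p = 0.00736) and Tnfrsf1b by 0.87 (adjusted p = 0.0451), and none held without the 8 libraries (adjusted p = 0.719, 0.569 and 0.969). In ICR against Obese limma called 0 of 14, with 3 at an unadjusted p under 0.05 and 0 by voom, and 2 fell without the 8 libraries. The LFCR calls of Il1r1 and Tnfrsf1b held in all 17 alternatives, and that of Il6ra was lost when any of 6 libraries was left out. Against Control, 4 fell (18% of all genes) and 1 rose (20.1%) in LFCR, and 5 fell (15.7%) and 1 rose (13.9%) in MCR. In LFD and ICR limma called 0, with 1 and 3 at an unadjusted p under 0.05 and 0 by voom. Without the 8 libraries, 2 fell and 1 rose in ICR against Control, where 4714 of all genes were called.

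The 15 genes for NF-kB and STAT3 factors and their feedback inhibitors had 0 calls by limma in Obese against Control, in LFD against Obese and in ICR against Obese, with 1, 0 and 2 at an unadjusted p under 0.05 and 0 by voom. In LFCR against Obese 4 of 15 fell (9.42% of all genes): the adaptor Myd88 by 0.34 (adjusted p = 0.00891), Stat3 by 0.27 (adjusted p = 0.0103), its feedback inhibitor Socs3 by 0.74 (adjusted p = 0.0168) and Bcl3 by 0.98 (adjusted p = 0.0398). In MCR 1 of 15 fell (5.69% of all genes), Zfp36 by 0.54 (adjusted p = 0.04996), a call lost in 12 of 16 alternatives. All 5 calls were lost without the 8 libraries, at adjusted p of 0.0785, 0.108, 0.158, 0.146 and 0.916. Without the 8, 1 other gene of the 15 rose in LFCR and 1 fell in ICR against Obese. Socs3 means were 789 ± 198 normalized counts in Obese, 767 in Control and 472 ± 148 in LFCR. Against Control, 8 of 15 fell in LFCR (18% of all genes), 6 in MCR (15.7%) and 1 in ICR (0.882%). In LFD limma called 0, with 3 at an unadjusted p under 0.05 and 0 by voom. Without the 8 libraries, 4 fell in LFCR, where at least 4364 of all genes were called in every alternative. In ICR 8 fell, where calls over all genes went from 887 to 4714.

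Of 9 receptors for acute phase proteins, the scavenger receptor Lrp1 rose in Obese against Control by 0.74 (adjusted p = 0.0450), a call lost in 12 of 17 alternatives. Fpr2, a receptor for serum amyloid A, fell in LFCR by 1.02 (adjusted p = 0.00233) and in ICR by 0.88 (adjusted p = 0.0163), from 25.7 ± 13.3 normalized counts in Obese to 4.83 ± 3.35 and 7.14 ± 7.59. Tlr2 fell in LFCR by 0.85 (adjusted p = 0.00255), and Fpr1 in LFCR by 0.61 (adjusted p = 0.0391) and in ICR by 0.87 (adjusted p = 0.00918). Fpr1 was near the limit of detection, with means of 10.0 ± 2.99 normalized counts in Obese, 2.66 ± 2.41 in LFCR and 0.880 ± 0.528 in ICR. The LFCR calls of Fpr2 (adjusted p = 0.0573) and Fpr1 (adjusted p = 0.196) were lost without the 8 libraries. That of Fpr1 was also lost when any of 7 libraries was left out (adjusted p up to 0.0904) and with lane as a term (adjusted p = 0.0524). The ICR call of Fpr2 was lost without Obese 2 (adjusted p = 0.0617) or ICR 4 (adjusted p = 0.0552) and with only the 2 groups in the fit (adjusted p = 0.0549), and that of Fpr1 held in all 17 alternatives. In LFD and MCR against Obese limma called 0 of 9, with 0 and 2 at an unadjusted p under 0.05 and 0 by voom. Against Control, 2 fell (18% of all genes) and 1 rose (20.1%) in LFCR, and 1 fell (15.7%) and 1 rose (13.9%) in MCR. In LFD and ICR against Control limma called 0, with 2 and 4 at an unadjusted p under 0.05 and 0 by voom. Without the 8 libraries, 2 fell and 2 rose in ICR against Control, where 4714 of all genes were called. Against Obese, 9 of 12 general macrophage genes fell in LFCR (9.42% of all genes), 4 in ICR (5.23%) and 1 in LFD (3.28%). In MCR against Obese, where none of the receptors was called, 6 fell (5.69%). The macrophage list mean was 10.87 to 11.57 in Obese and 9.83 to 10.89 in LFCR. Of 10 neutrophil genes tested, 4 fell in LFCR, 2 in ICR, 1 in MCR and 0 in LFD against Obese, beside the same shares of all genes. The part of either cell type in the receptor results was not tested.

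The genes most like each member over the 29 libraries, by Pearson's r of the deposited log2 values, were as follows. For Saa3 they were Dcstamp (r = 0.944), a fusion protein of osteoclasts and giant cells, the coagulation factor F10 (r = 0.929) and Cntn2 (r = 0.911). For Il1rn they were Tnip3 (r = 0.914), Itgad (r = 0.910) and the macrophage elastase Mmp12 (r = 0.889). For Hp they were Lgals1 (r = 0.941), Sgcd (r = 0.931) and Psat1 (r = 0.931), and for Orm1 Pm20d1 (r = 0.942), Tpmt (r = 0.918) and Mrap (r = 0.914). For Lcn2 they were Slco1a5 (r = 0.923), the vitamin D receptor Vdr (r = 0.900) and 2010300C02Rik (r = 0.896), and for Tnf Tmc8 (r = 0.978), Gpr132 (r = 0.977) and Clcf1 (r = 0.976). These values describe libraries that share groups, and for Tnf also the 8 libraries low in B cell genes.

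Among the members themselves, 10 pairs were compared on deviations from the group means over 29 libraries, leaving out Tnf. The pair with the smallest p was Orm1 and Hp, with r = 0.54 and rho = 0.49 (permutation p = 0.00727 and 0.0159, adjusted p = 0.0727 and 0.155), and r = 0.58 without the 2 libraries farthest out. Saa3 and Il1rn had the highest r, 0.56, and rho = 0.21 (permutation p = 0.0473 and 0.360, adjusted p = 0.237 and 0.863), and r was 0.15 without the 2 farthest libraries, so that the value rests on those. No pair passed the adjusted threshold.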

How the data were processed

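The authors deposited 1 table of log2 values per gene symbol and library. TRIzol RNA was made into stranded total RNA libraries and read as pairs of 76 bases, per the labels' protocols. The submitters' processing notes name DESeq2 (no version), HTSeq 0.5.3p9, TopHat2 2.0.7 and the mm10 build. For the annotation and strand setting, no statement was found (not given in the sources). No source states the transform. All columns share a lowest value of 3.75, and undoing a variance-stabilising transform with that value as 0 reads gave whole reads (within 0.01) for 100% of values in each library, so the normalized counts rest on that inference. Lanes are from the column names.

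limma 3.58.1 (R 4.3.3, statmod 1.5.0; trend and robust moderation) was run with 1 mean for each group and all 29 libraries together, with Benjamini-Hochberg adjustment over 19387 genes (normalized count of 10 or more in at least 4 libraries). The fit was tested on simulated data. Alternatives were leaving out each library or the 8 low in B cell genes, fitting only the groups compared, lane as a term, no minimum, log2(normalized count + 1), and voom on recovered reads with size factors or TMM. Named genes are the 9 members in every comparison, up to 4 genes with the smallest adjusted p past 0.05 per pathway list and comparison with Obese (for other acute phase genes, in all comparisons with Control too), the 3 genes with the highest r for each member tested, and markers set beside a result. Genes outside this rule (Saa4, Orm2, Il1a, Il1b, Apoa1, Tat and Alb) were chosen after their values were seen. The members and lists were chosen with earlier results of these data known. Positions and transcripts are from GENCODE vM21 (GRCm38).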

Additional observations from a re-analysis of the deposited data

Results flagged for a closer look

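A library far from the others of its group was found in 7 of 51 gene and group combinations, by Dixon's test at 95%. The test flags about 1 in 20 by chance for continuous values. A lone library with reads in a group otherwise at 0 is always flagged, as for Saa1 in MCR 1 and Saa2 in LFD 1 and ICR 3. The count of 7 therefore cannot be set against that rate. ICR 3 had 3 of the 7: Saa1 at 34.5 normalized counts against 1.88 or less in the other ICR libraries, Saa2 at 5.39 against 0, and Lcn2 at 4191 against 1187 or less. With 5 libraries in ICR, any of them is highest for some genes, so the genes named next do not set ICR 3 apart. For most of the 21 other acute phase and 11 neutrophil genes it was not above all other ICR libraries. ICR 3 lay above all other ICR libraries for the member Orm1 (3384 against 2400 or less). Among the other genes it did so for Cp (16775 against 9817 or less), Steap4 (16525 against 12193 or less), Fgb (166 against 111 or less), Itih3 (77.6 against 66.3 or less) and Itih4 (53.9 against 48.1 or less). It also did so for Ltf, the lactoferrin gene (17277 against 7306 or less), and, with 1 read, Ly6g (1.08 against 0.888 or less). It was not above them for S100a8 (38.8, inside 24.0 to 67.7) or Saa3 (1.08). It lay below all other ICR libraries for Lrg1 (1705 against 2443 or more), Lbp (680 against 1040 or more) and C3 (39806 against 51338 or more). The same held for Mt1 (1008 against 1337 or more) and Mt2 (268 against 375 or more). At low counts it also held for Hamp (4.31 against 7.52 or more), Crp (0 against 3.52 or more) and Elane (12.9 against 13.2 or more). LFCR 1 had Hp at 25527 against 7474 or less, and LFD 1, which is low in B cell genes, had Tnf at 22.4 against 106 or more. The remaining 2 rest on 1 and 2 reads: Saa1 in MCR 1 at 0.853 and Saa2 in LFD 1 at 1.95, with 0 in the others of their groups.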

How the results depend on the processing

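Over 1062 alternative values of the members' differences, 947 kept direction and call, 72 lost a call, 22 gained one and 21 changed sign, none of the latter from a called value. The same alternatives were applied to the genes named from the pathway lists, and the counts over those lists were also made without the 8 libraries low in B cell genes, steps chosen after seeing the data. No paired analysis was possible because the titles give each library its own number and no replicate number is shared between groups. Without the 8 libraries low in B cell genes, where MCR keeps 1 library that is assumed to vary like the others, calls went from 3 to 1 among the members and from 2496 to 628 over all genes in Obese against Control, from 3 to 0 and from 1159 to 171 in LFD against Obese, from 2 to 1 and from 2395 to 101 in MCR against Obese, from 7383 to 4915 genes in LFCR against Control, from 3 to 0 and from 5730 to 0 in MCR against Control, from 0 to 3 and from 887 to 4714 in ICR against Control, and from 645 to 4 genes for the restricted diets against LFD. Differences that turned there were Tnf in LFD, MCR and ICR against Obese (-0.22, 0.40 and -0.35), in MCR against Control (0.23) and in the restricted diets against LFD (0.20), and Lcn2 (-0.39) and Orm1 (-0.0199) in MCR against Obese. With only the groups compared in the fit, calls went to 1 member and 1082 genes in Obese against Control, 0 and 140 in LFD against Obese, 1 and 1135 in MCR against Obese, 0 and 1 in MCR against Control, 2 members in ICR against Control and 1 member for the restricted diets against LFD. With lane as a term they went to 1590 genes in MCR against Obese, 1 member in MCR against Control, 1 member and 284 genes for the restricted diets against LFD and 1 gene among them, and Tnf in LFD against Obese became -0.10. Without the minimum they went to 1 member in MCR against Control, 417 genes for the restricted diets against LFD and 4 among them. With voom and TMM, 1 member passed in LFD against Obese, and on log2(normalized count + 1) Saa3 in LFD against Control became 0.0072. Leaving out 1 library at a time gave 1090 to 3377 genes in Obese against Control, 0 to 4 members and 456 to 1634 genes in LFD against Obese, 1202 to 4507 in MCR against Obese, 4364 to 8157 in LFCR against Control, 0 to 4 members and 547 to 9117 genes in MCR against Control, 149 to 1518 in ICR against Control, 0 to 1 member and 100 to 1760 genes for the restricted diets against LFD, and 0 to 505 among them. In those fits the difference ran from -0.19 to 0.32 for Orm1 and from -0.21 to 0.38 for Tnf in LFD against Obese, and from -0.13 to 0.12 for Saa3 in LFD against Control. The cause of these changes was not tested. Depth limits Saa1, Saa2, Il6, in the restricted diets Saa3, and in LFCR and ICR also Fpr1.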
